A study of Mus musculus with 12 samples.

Results

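The integrated stress response and the genes that the transcription factor ATF4 activates were followed in mouse embryonic stem cells by RNA sequencing. The list of 38 genes was taken by symbol from a table of 22753 genes, and all 38 had a row in it. Of these, 37 passed the filter on low counts and were tested among 15179 genes, and Fgf21 did not pass. The cells were 2 clonal lines, clones 10 and 4, in which Sphk1 is floxed and Sphk2 is deleted, grown in serum with leukemia inhibitory factor. Sphk1 and Sphk2 encode the kinases that make sphingosine 1-phosphate. Every library came from cells exposed to 6 uM 4-hydroxytamoxifen for 48 hours and sorted by Cre-GFP. GFP-positive cells are labelled Sphk1-/- Sphk2-/-, and GFP-negative cells Sphk1fl/fl Sphk2-/-, so both lack Sphk2 and both saw the drug. Each clone gave 3 GFP-positive and 3 GFP-negative libraries, 12 in all, labelled with passages 11 to 20, and each genotype rests on the same pair of clones.

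In this response, any of 4 kinases (GCN2, PERK, HRI and PKR) phosphorylates the translation factor eIF2, which slows protein synthesis as a whole while the Atf4 transcript is translated more. ATF4 then raises genes for amino acid synthesis, amino acid uptake and tRNA charging, and also Ddit3, which encodes CHOP, a factor linked to cell death under prolonged stress. Because ATF4 is controlled largely at translation, the Atf4 transcript measured here is not a measure of the protein. In embryonic stem cells these genes are known to respond to amino acid supply and to stress of the endoplasmic reticulum. In these bulk libraries, fewer cells of a type and less RNA per cell cannot be told apart.

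The promoters of 6 genes of the list are shown to place the sequence known to bind ATF4 with C/EBP partners, TGATGNAA. It is the CCAAT-ATF response element form, was searched on both strands, and is found in some genes and not in others. The sequences are from RefSeq on GRCm38.p6 and run 5′ to 3′ on the gene's strand, from 250 bases before the start site to 50 bases after it. Capitals mark each match to TGATGNAA, which lay 110 bases before the start site in Nupr1, 193 before it in Chac1, 23 before it in Asns, 66 and 47 before it in Slc7a11 and 14 after it in Trib3.
Ddit3 promoter (chr10:127290543-127290842, plus strand): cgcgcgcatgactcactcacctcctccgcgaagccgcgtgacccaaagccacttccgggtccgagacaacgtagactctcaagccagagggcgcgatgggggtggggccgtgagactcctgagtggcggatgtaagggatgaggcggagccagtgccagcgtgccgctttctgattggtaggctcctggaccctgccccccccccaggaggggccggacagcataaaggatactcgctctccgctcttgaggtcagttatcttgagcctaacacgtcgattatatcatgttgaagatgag
Nupr1 promoter (chr7:126625421-126625720, minus strand): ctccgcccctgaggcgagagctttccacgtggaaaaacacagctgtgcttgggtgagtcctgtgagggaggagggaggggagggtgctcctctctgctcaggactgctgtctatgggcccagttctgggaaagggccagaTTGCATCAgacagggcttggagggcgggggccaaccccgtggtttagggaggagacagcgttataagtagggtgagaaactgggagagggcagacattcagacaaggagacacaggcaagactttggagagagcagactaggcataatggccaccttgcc
Trib3 promoter (chr2:152344011-152344310, minus strand): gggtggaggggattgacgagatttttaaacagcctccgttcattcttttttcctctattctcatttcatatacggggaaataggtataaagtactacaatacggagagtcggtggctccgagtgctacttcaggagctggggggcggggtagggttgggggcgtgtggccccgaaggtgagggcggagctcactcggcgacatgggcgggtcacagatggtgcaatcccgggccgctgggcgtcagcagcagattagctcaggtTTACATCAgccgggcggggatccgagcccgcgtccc
Chac1 promoter (chr2:119350992-119351291, plus strand): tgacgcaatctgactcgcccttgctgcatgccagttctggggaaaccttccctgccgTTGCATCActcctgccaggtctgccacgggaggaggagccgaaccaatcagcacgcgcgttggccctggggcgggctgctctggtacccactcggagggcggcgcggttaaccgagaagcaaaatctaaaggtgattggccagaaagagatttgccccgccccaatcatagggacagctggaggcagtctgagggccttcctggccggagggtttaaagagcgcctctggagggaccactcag
Asns promoter (chr6:7693160-7693459, minus strand): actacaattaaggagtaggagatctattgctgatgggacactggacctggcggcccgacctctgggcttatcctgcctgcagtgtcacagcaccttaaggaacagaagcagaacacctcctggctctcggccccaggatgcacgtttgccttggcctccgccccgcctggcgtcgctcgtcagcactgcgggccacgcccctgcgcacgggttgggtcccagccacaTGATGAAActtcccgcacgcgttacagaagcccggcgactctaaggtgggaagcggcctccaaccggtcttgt
Slc7a11 promoter (chr3:50443564-50443863, minus strand): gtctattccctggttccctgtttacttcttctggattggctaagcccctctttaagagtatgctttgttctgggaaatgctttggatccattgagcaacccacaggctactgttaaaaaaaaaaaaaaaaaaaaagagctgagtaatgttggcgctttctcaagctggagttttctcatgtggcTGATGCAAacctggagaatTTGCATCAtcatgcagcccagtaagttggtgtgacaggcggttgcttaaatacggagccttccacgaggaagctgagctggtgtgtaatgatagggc
Of the 38 genes, 30 had at least 1 promoter entry. A match was present in 10 of these 30 (33.3%), against 4.51% of all 27025 genes in the RefSeq table and 3.97% of its 32851 promoters. The list was drawn up as ATF4 targets, so this excess was built into it and is no separate result. The genes with a match were Nupr1, Trib3, Chac1, Asns, Slc7a11, Fgf21, Vldlr, Gars, Aars and Tars, and Slc7a11 and Aars had 2 matches. Ddit3, Atf4, Ppp1r15a and Cebpb had none in this window. All the promoters shown except that of Ddit3 hold a match, so they do not stand for the list. No entry was present for Eif4ebp1, Aldh1l2, Slc7a5, Slc7a3, Nars, Wars, Mars and Cars.

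The libraries held 12968916 to 34258395 counts. All 12 embryonic stem cell markers were detected in every library, with a summed level of 5399 to 13370 CPM (counts per 1e+06, scaled with TMM normalization factors). Same-numbered GFP-positive and GFP-negative libraries of a clone deviated together from their group means, with correlations of 0.632 to 0.893 over the 6 pairs. Differently numbered libraries of a clone gave -0.612 to -0.208. Because deviations were taken from group means, these negative values follow largely from the positive ones and add no support for pairing. GFP-positive and GFP-negative cells were therefore also compared within the 6 pairs. Clone 4 replicate 2 stood apart for Ddit3 in both gates, and clone 10 GFP-negative replicate 1 was the shallowest library, with 0.143% of counts in mitochondrial genes against 0.594% to 2.32% elsewhere. That library also stood at 25970 CPM for the summed mitochondrial tRNA synthetases (1711 to 3822 CPM elsewhere). The stem cell markers summed there to 13370 CPM (5399 to 8439 CPM elsewhere). A sum follows its most abundant genes, and the levels of single mitochondrial synthetases are not given. Their median log2 change between the gates of clone 10 was -0.21 within pairs (17 genes), so the sum need not stand for each gene. The shallow library was the highest of all 12 libraries for 9 of the 38 genes, Atf4, Trib3, Asns, Eif4ebp1, Phgdh, Psph, Shmt2, Sars and Wars. Calls between gates and between clones that move with either are given without them too, while signs and medians of lists are not. Whether replicates were separate cultures or sorts is not in the labels, so the spread behind each p-value may be technical.

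In the mm10 coordinates of the authors' tables, Ddit3 lies at chr10:127290774-127296288, Atf4 at chr15:80255184-80257540, Nupr1 at chr7:126623249-126627010, Chac1 at chr2:119351229-119354381, Ppp1r15a at chr7:45522916-45526268 and Asns at chr6:7675169-7693254. Levels between genes are compared as CPM per kilobase of merged exons. Asns (asparagine synthetase) had the highest median over the 12 libraries at 207 CPM per kb, followed by Atf4 at 180 and Gars (glycyl-tRNA synthetase) at 173 CPM per kb. Trib3 (28.3), Ddit3 (22.1), Nupr1 (18.0) and Chac1 (6.70 CPM per kb) were lower, and Slc7a11, the cystine transporter, was lowest at 0.151 CPM per kb, from 4 to 126 counts a library. Fgf21, a secreted stress hormone, had 35 and 37 counts in clone 4 replicate 2 (GFP-positive and GFP-negative) and 1 to 9 counts in every other library.

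**Figure D1:**
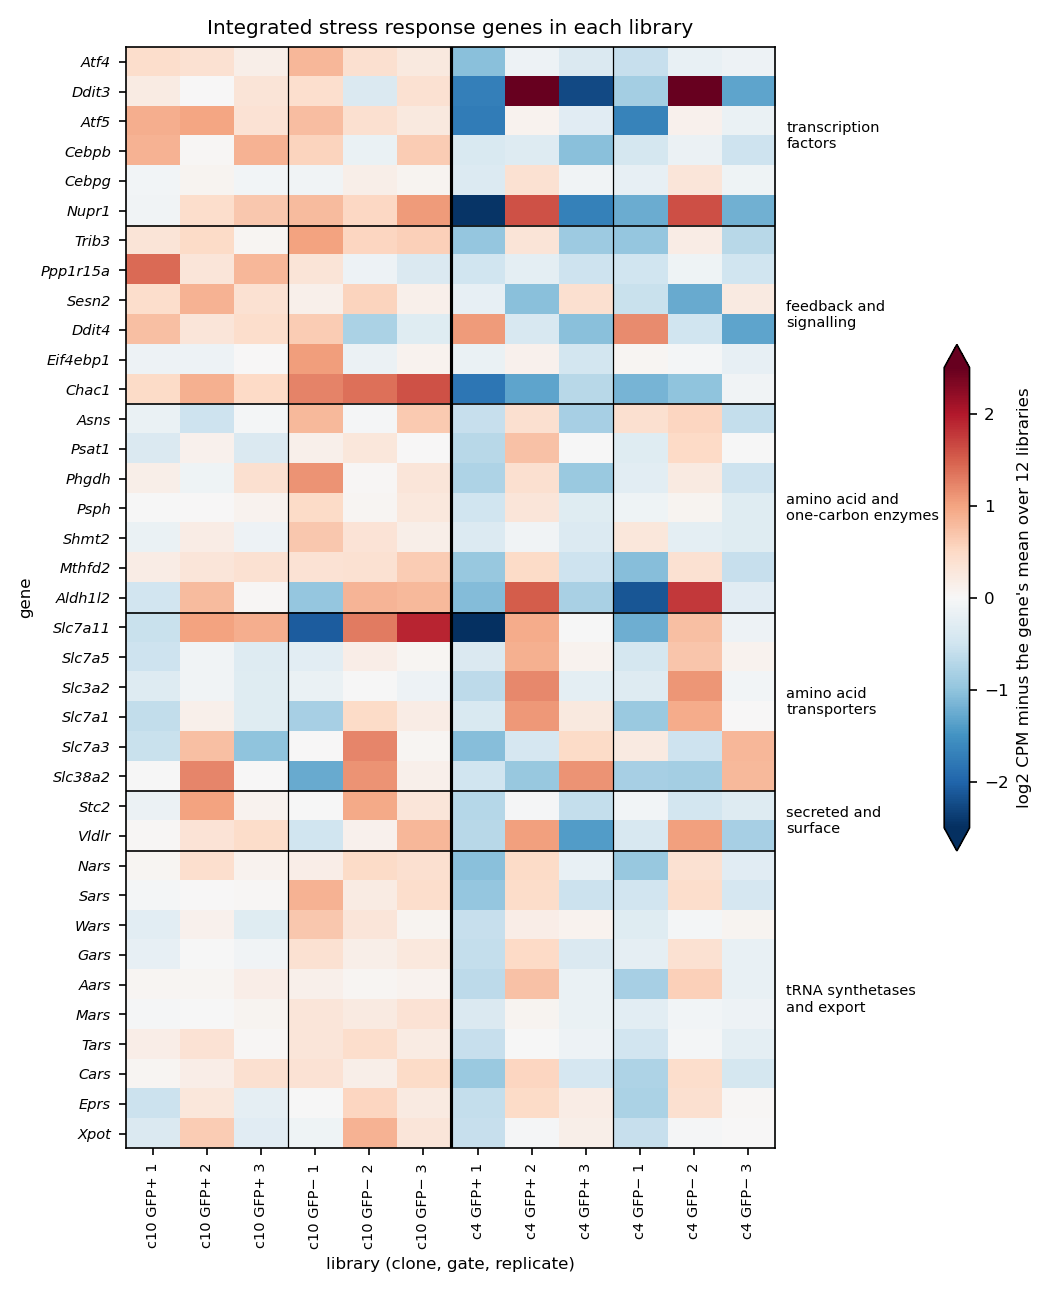
Level of the 37 tested genes (rows, by role) in each of the 12 libraries (columns; c10 and c4 are clones 10 and 4, GFP+ and GFP− the gates, with the replicate number), as log2 CPM minus the gene's mean over all libraries, with colours capped at 2.5 in either direction. Both replicate 2 libraries of clone 4 are redder than the other 4 of that clone for 26 genes, with Ddit3 at 204 and 210 CPM.

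The first comparison was between the replicate pairs of clone 4, since its replicate 2 stood apart. That Ddit3 did so was known when the list was drawn up, so its own values are a description. The adjusted p-values of the other genes do not allow for this choice of replicate, and leaving Ddit3 out does not undo it. Ddit3 stood at 204 CPM in GFP-positive and 210 CPM in GFP-negative cells of replicate 2, against 7.38 and 14.1 CPM in replicate 3 and 10.8 and 19.6 CPM in replicate 1. The 6 clone 10 libraries lay between, at 40.4, 35.4 and 44.0 CPM in GFP-positive and 46.9, 27.3 and 45.9 CPM in GFP-negative replicates 1 to 3. The fitted log2 difference of replicate 2, given without a test, was 3.84 over replicate 1 and 4.35 over replicate 3. Ddit3 shares 68 exon bases with the oppositely transcribed Mars, whose reads there cannot be told apart because the strand setting is not given in the sources used here. In GENCODE it also shares 13 bases with Gm4189 and 105 with a second entry named Ddit3 on the same strand. Whether the annotation used for counting held that entry is not given. Mars itself stood at 265 and 238 CPM in replicate 2 and at 196 to 230 CPM in replicates 3 and 1.

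Most of the other genes were also higher in replicate 2. An F test across the 3 pairs of clone 4, within the fit that holds the pair as a term, called 29 of 37 genes at an edgeR adjusted p under 0.05, where 44.7% of all genes tested were called. In replicate 2 over replicate 1, 23 rose, Ddit3 among them, and 2 fell, where 12.1% of all genes were called higher and 13.9% lower, and the median log2 difference was 0.84 against -0.023 over all genes. In replicate 2 over replicate 3, 19 rose and 4 fell, against 16% and 17.1% of all genes, with a median of 0.63 against 0.016. Replicate 3 over replicate 1 had 13 higher and 1 lower, against 11.5% and 11.9% of all genes, with a median of 0.35 against -0.0077. Scaling by total counts changed that last split to 9 higher and 2 lower. Without replicate 2 the F test called 11 genes of the list and 17.4% of all genes, without replicate 1 it called 23 and 31.5%, and without replicate 3 it called 21 and 16.7%. Ddit3 is counted in these tallies, and without it the F test called 28 of 36, with 22 higher and 2 lower over replicate 1 (median 0.75) and 18 higher and 4 lower over replicate 3 (median 0.59). A pair is 1 number of the labels, and its 2 libraries may share a culture, so these tests set the pairs against the spread within pairs and not against the spread between cultures.

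**Figure D2:**
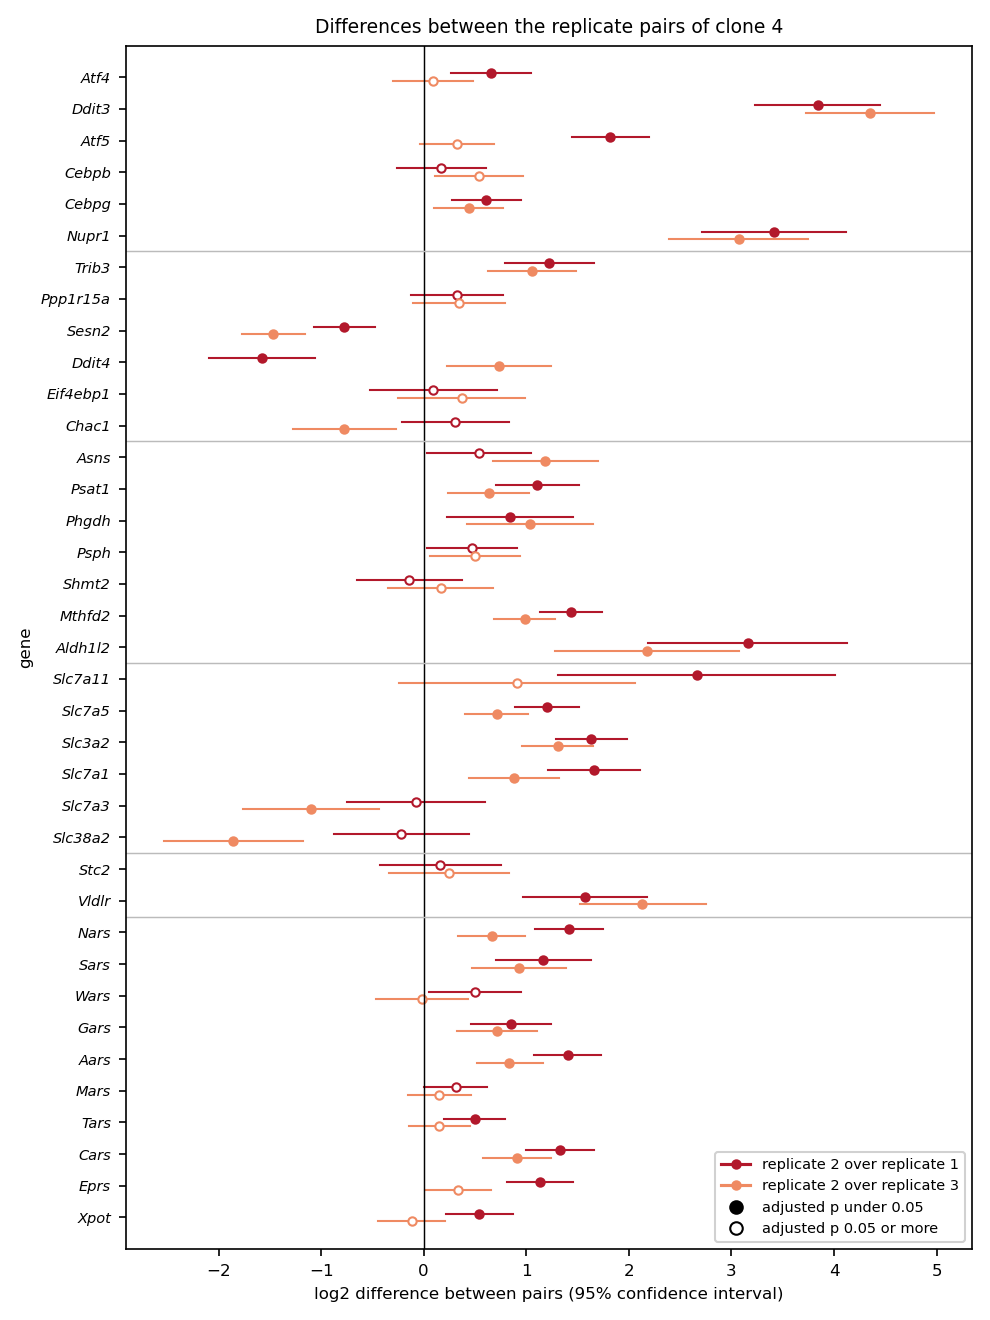
Log2 difference between replicate pairs of clone 4 for the 37 tested genes (rows), replicate 2 over replicate 1 and replicate 2 over replicate 3; lines are 95% confidence intervals and filled points have an adjusted p under 0.05. Ddit3 and Nupr1 lie farthest right, at 3.84 and 3.42 over replicate 1, while Sesn2 lies left of 0 in both. The interval and fill of Ddit3 are a description, since its values led to the choice of replicate 2.

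Among the transcription factors other than Ddit3, 4 of 5 rose over replicate 1 and 2 of 5 over replicate 3. Nupr1, a small stress-inducible chromatin protein, had 97.5 and 98.8 CPM in GFP-positive and GFP-negative cells of replicate 2, against 10.0 and 14.1 CPM in replicate 3 and 5.89 and 13.8 CPM in replicate 1. Its log2 difference was 3.42 over replicate 1 and 3.07 over replicate 3 (SE 0.309 and 0.300, edgeR adjusted p = 0.000467 and 0.000352). Both replicate 2 libraries thus lay above the other 4, and above the highest clone 10 library at 68.1 CPM. Atf4 itself rose over replicate 1 and did not pass the test over replicate 3. It had 386 and 370 CPM in replicate 2, 328 and 386 CPM in replicate 3 and 203 and 284 CPM in replicate 1. Its log2 difference was 0.65 (SE 0.173, edgeR adjusted p = 0.0254) over replicate 1 and 0.09 (95% confidence interval -0.296 to 0.482) over replicate 3. Atf5, a related factor also induced by eIF2 phosphorylation, had 75.8 and 77.0 CPM in replicate 2, against 58.8 and 63.0 CPM in replicate 3 and 21.1 and 22.2 CPM in replicate 1. The replicate 1 libraries were the low ones for Atf5, with log2 differences of 1.82 (SE 0.165) for replicate 2 and 1.49 (SE 0.164) for replicate 3, both over replicate 1. Atf5 shares 82 exon bases with Nup62 and Il4i1 on the other strand. Cebpg, a partner of ATF4 on DNA, rose in replicate 2 by 0.61 over replicate 1 and 0.44 over replicate 3 on the log2 scale, and Cebpb passed neither test.

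The feedback and signalling genes did not share a direction. Trib3, a pseudokinase that restrains ATF4, had 63.2 and 57.3 CPM in replicate 2, against 26.9 and 31.3 CPM in replicate 3 and 25.9 and 25.7 CPM in replicate 1. Its log2 difference was 1.22 over replicate 1 and 1.05 over replicate 3 (edgeR adjusted p = 0.00345 and 0.00403). Sesn2, a leucine-binding inhibitor of mTORC1, ran the other way, with 91.0 and 78.8 CPM in replicate 2, against 248 and 221 CPM in replicate 3 and 164 and 128 CPM in replicate 1. Both its replicate 2 libraries lay below the other 4, and the log2 difference was -0.77 over replicate 1 and -1.47 over replicate 3 (edgeR adjusted p = 0.00479 and 0.000259). Ddit4, another mTORC1 inhibitor, had 96.2 and 88.9 CPM in replicate 2, 61.0 and 50.6 CPM in replicate 3 and 264 and 287 CPM in replicate 1, so that the replicate 1 libraries stood above the rest (log2 difference of replicate 2 -1.57 over replicate 1 and 0.73 over replicate 3). Chac1, which degrades glutathione, had 3.74 and 4.68 CPM in replicate 2, against 5.77 and 8.83 CPM in replicate 3 and 2.70 and 4.19 CPM in replicate 1. Its level in replicate 2 was lower than in replicate 3 (log2 difference -0.77, edgeR adjusted p = 0.0271), opposite to Ddit3. Ppp1r15a, whose product GADD34 directs a phosphatase to eIF2, spanned 39.4 to 52.9 CPM over the 6 libraries, and neither it nor Eif4ebp1, a repressor of translation initiation, passed either test.

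Among the enzymes of serine, asparagine and one-carbon metabolism, 4 of 7 rose over replicate 1 and 5 of 7 over replicate 3, and none fell. Mthfd2, a mitochondrial folate enzyme, had 161 and 150 CPM in replicate 2, against 80.0 and 77.2 CPM in replicate 3 and 59.8 and 55.3 CPM in replicate 1. The groups did not overlap, with log2 differences of 1.43 and 0.98 over replicates 1 and 3 (edgeR adjusted p = 0.000489 and 0.00107). Aldh1l2, another mitochondrial folate enzyme, had 14.1 and 16.8 CPM in replicate 2, against 2.83 and 4.04 CPM in replicate 3 and 2.34 and 1.12 CPM in replicate 1, a log2 difference of 3.16 (SE 0.426) over replicate 1. Of its exon bases, 1056 are shared with D10Wsu102e, so reads there cannot be told apart. Asns had 766 and 841 CPM in replicate 2, against 326 and 383 CPM in replicate 3 and 389 and 765 CPM in replicate 1. It passed the test over replicate 3 (log2 difference 1.19, edgeR adjusted p = 0.00507) and not over replicate 1 (0.54, adjusted p = 0.103), where the GFP-negative library was nearly as high. Psat1 and Phgdh, enzymes of serine synthesis, rose in both comparisons, while Psph, the last enzyme of that pathway, and Shmt2 passed neither.

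The amino acid transporters divided by gene. Slc3a2, the heavy chain shared by several exchangers, had 857 and 804 CPM in replicate 2, against 316 and 359 CPM in replicate 3 and 239 and 300 CPM in replicate 1. Its partner Slc7a5, which carries large neutral amino acids, had 767 and 670 CPM in replicate 2, against 440 and 437 CPM in replicate 3 and 321 and 304 CPM in replicate 1. The log2 difference over replicate 1 was 1.63 (SE 0.153) for Slc3a2 and 1.20 (SE 0.137) for Slc7a5, and both also rose over replicate 3, as did Slc7a1, a carrier of cationic amino acids. Slc7a11 rose over replicate 1 (log2 difference 2.66, SE 0.595), where it had 5 and 15 counts, and did not pass the test over replicate 3. Slc7a3, a second cationic carrier, and Slc38a2, the sodium-coupled neutral carrier, fell in replicate 2 against replicate 3, with log2 differences of -1.10 and -1.85. Slc38a2 had 96.1 and 103 CPM in replicate 2, against 404 and 323 CPM in replicate 3 and 131 and 104 CPM in replicate 1. Vldlr, a lipoprotein receptor, had 15.6 and 15.7 CPM in replicate 2, against 2.92 and 4.36 CPM in replicate 3 and 4.77 and 5.84 CPM in replicate 1 (log2 differences 2.13 and 1.57 over replicates 3 and 1). Stc2, a secreted glycoprotein, ranged from 6.75 to 10.9 CPM in clone 4 and passed neither test.

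Of the 9 tRNA synthetases and the tRNA exporter Xpot, 8 of 10 rose in replicate 2 over replicate 1 and 5 of 10 over replicate 3. Aars (alanyl-tRNA synthetase) had 1370 and 1240 CPM in replicate 2, against 737 and 727 CPM in replicate 3 and 522 and 463 CPM in replicate 1. Nars (asparaginyl) had 630 and 587 CPM in replicate 2, against 399 and 370 CPM in replicate 3 and 220 and 235 CPM in replicate 1. Cars (cysteinyl) had 359 and 334 CPM in replicate 2, against 185 and 183 CPM in replicate 3 and 131 and 145 CPM in replicate 1. For each of these 3 genes replicate 2 was the highest pair, replicate 1 the lowest, and no pairs overlapped. Wars (tryptophanyl) and Mars (methionyl) passed neither test, and Wars was level with replicate 3, with a log2 difference of -0.02 and a 95% confidence interval of -0.468 to 0.43. Aars shares 1326 exon bases with Exosc6.

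Counted without a test, both replicate 2 libraries lay above the other 4 of clone 4 for 26 of 37 genes (25 of 36 without Ddit3), where 21.4% of all genes did, and below them for 2, where 22.9% did. Both replicate 1 libraries lay above for 1 gene (16.2% of all genes) and below for 19 (15.3%), and both replicate 3 libraries lay above for 5 (21%) and below for 6 (20.2%). The list made up 1.12% and 1.07% of the counts in replicate 2, against 0.660% and 0.711% in replicate 3 and 0.550% and 0.620% in replicate 1. The 9 tested genes whose promoter held a match to TGATGNAA had a median log2 difference of 1.23 in replicate 2 over replicate 1 and 0.91 over replicate 3, and the 20 with an entry and no match had 0.63 and 0.47. Over replicate 1 the values ran from 0.31 to 3.42 with a match and from -1.57 to 3.84 without one, and the highest without a match was Ddit3. No such split was made for all genes tested.

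Other lists and markers also differed between the pairs of clone 4. The counts below stand beside 12.1% of all genes called higher and 13.9% lower over replicate 1, and 16% and 17.1% over replicate 3. Of 25 further ATF4 targets, 12 rose and 3 fell in replicate 2 over replicate 1, and 14 rose and 2 fell over replicate 3, with medians of 0.73 and 0.90. The medians of both comparisons were thus positive, beside -0.023 and 0.016 over all genes. Among these targets, Pck2, the mitochondrial phosphoenolpyruvate carboxykinase, rose by 1.46 and 2.01 on the log2 scale and Gpt2, the mitochondrial alanine transaminase, by 0.94 and 0.77, over replicates 1 and 3. Atf3, a factor induced with Ddit3, was higher by 1.05 and 1.07 without passing either test. Of 20 genes of the endoplasmic reticulum's unfolded protein response, 8 rose and 1 fell over replicate 1, and 3 rose over replicate 3. Of 12 genes for eIF2 kinases, phosphatases and eIF2B, 2 rose over replicate 1 and 4 fell over replicate 3, and Eif2ak3, which encodes PERK, passed neither test. Of 11 other cytosolic tRNA synthetases, 4 rose over replicate 1, and 1 rose and 1 fell over replicate 3. Of 17 mitochondrial ones, 1 rose and 4 fell over replicate 1, and 1 rose and 5 fell over replicate 3. Of 20 p53 targets, 2 rose and 5 fell over replicate 1, and 4 rose and 3 fell over replicate 3. None of these last 4 lists moved mainly upward in both comparisons. The 13 fibroblast markers summed to 208.1 and 464 CPM in replicate 2, against 109.1 and 326.1 CPM in replicate 3 and 68.2 and 149.5 CPM in replicate 1 (GFP-positive and GFP-negative), and all 13 were detected in replicates 2 and 3, while Lum was at 0 in replicate 1. The embryonic stem cell markers summed to 5399 and 5526 CPM in replicate 2, against 6850 and 6298 CPM in replicate 3 and 6237 and 7963 CPM in replicate 1. Of these 12 markers 1 rose and 6 fell over replicate 1, and 1 rose and 5 fell over replicate 3, with Sox2 at 129 and 153 CPM in replicate 2 against 385 to 514 CPM in the other 4 libraries and Tfcp2l1 at 836 and 880 CPM against 331 to 658 CPM, both named after their values were seen. Replicate 2 was thus highest for the fibroblast and endoderm sums in both gates and lowest for the stem cell sum in both. The 11 markers of a two-cell-like state summed to 34.92 and 4.101 CPM in replicate 2, against 26.35 and 6.101 CPM in replicate 3 and 242.5 and 14.94 CPM in replicate 1. The 4 trophoblast markers summed to 26.01 to 102.4 CPM over the 6 clone 4 libraries. The 4 endoderm markers summed to 26.35 and 25.38 CPM in replicate 2. Their sums were 13.19 and 15.37 CPM in replicate 3 and 13.45 and 13.78 CPM in replicate 1. The largest part was Gata4, with 21.2 and 21.3 CPM in replicate 2 against 7.98 to 12.4 CPM in the other 4 libraries. Gata6 had 2.6 and 2.22 CPM (1.03 to 5 elsewhere), Sox17 2.37 and 1.74 (0.803 to 2.2) and Foxa2 0.228 and 0.145 (0 to 0.436). Only for Gata4 did both replicate 2 libraries lie above the other 4. The passages labelled were 14 and 13 for replicate 2, 16 and 15 for replicate 3 and 11 and 11 for replicate 1, but the labelled numbers of replicates 2 and 3 run on by 1 across clones and gates and may not be accurate. The part of these measures in the differences was not tested.

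Fewer of the 37 genes were called among the pairs of clone 10, a difference from clone 4 that was not tested. The F test called 11 of them, where 27.7% of all genes were called. Replicate 2 over replicate 1 had 13 calls, 10 higher and 3 lower, where 25.1% of all genes were called. Replicate 2 over replicate 3 had 4 higher and 1 lower (14.6% of all genes), a split that scaling by total counts changed to 2 and 2. Replicate 3 over replicate 1 had 0 edgeR calls among the 37 (3.83% of all genes), with 8 at an unadjusted p under 0.05. The F test's share of the list, 29.7%, was thus near that of all genes. Replicate 2 over replicate 1 called 35.1% of the list, against 25.1% of all genes. The F test called 0 of the list and 2.22% of all genes without replicate 2, and 1 of the list and 1.24% of all genes with only the 6 clone 10 libraries in the fit. It called 7 (16.6% of all genes) without clone 4 replicate 2 and 4 (11.1%) without clone 4 replicate 3.

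As a description, the 11 called genes in clone 10 were 4 transporters, 3 feedback and signalling genes, Eprs, Xpot, Cebpb and Stc2. Slc38a2 had 429 and 401 CPM in GFP-positive and GFP-negative cells of replicate 2, against 186 and 202 CPM in replicate 3 and 183 and 77.3 CPM in replicate 1. Slc7a3 had 190 and 266 CPM in replicate 2, against 56.8 and 117 CPM in replicate 3 and 77.4 and 114 CPM in replicate 1. Xpot had 217 and 258 CPM in replicate 2, against 116 and 173 CPM in replicate 3 and 110 and 130 CPM in replicate 1. Replicate 2 was the high pair for these 3 genes, with edgeR adjusted p = 0.0125, 0.0161 and 0.00796 across the pairs. Eprs, the glutamyl-prolyl-tRNA synthetase, had 575 and 682 CPM in replicate 2, against 402 and 545 CPM in replicate 3 and 324 and 469 CPM in replicate 1. Slc7a1 had 140 and 179 CPM in replicate 2, against 104 and 147 CPM in replicate 3 and 84.3 and 72.0 CPM in replicate 1. Slc7a11 had 3.14 and 3.85 CPM in replicate 2, against 2.95 and 5.84 CPM in replicate 3 and 1.07 and 0.372 CPM in replicate 1, where it was lowest. Replicate 1 was thus the low pair for all 3 of these genes by mean. Stc2 had 22.4 and 21.6 CPM in replicate 2, against 11.9 and 13.8 CPM in replicate 3 and 10.0 and 11.0 CPM in replicate 1, and Sesn2 had 344 and 276 CPM, against 246 and 205 CPM and 255 and 205 CPM. Cebpb had 15.5 and 13.5 CPM in replicate 2, against 27.6 and 23.5 CPM in replicate 3 and 27.5 and 22.3 CPM in replicate 1, so here replicate 2 was the low pair. Ddit4 had 155 and 72.8 CPM in replicate 2, against 170 and 102 CPM in replicate 3 and 212 and 196 CPM in replicate 1. Ppp1r15a had 70.1 and 51.8 CPM in replicate 2, against 101 and 43.9 CPM in replicate 3 and 151 and 70.4 CPM in replicate 1. The replicate 1 pair had the highest mean for both Ddit4 and Ppp1r15a. Neither Ddit3 (adjusted p = 0.184) nor Nupr1 (adjusted p = 0.292) passed edgeR's F test in clone 10.

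**Figure D3:**
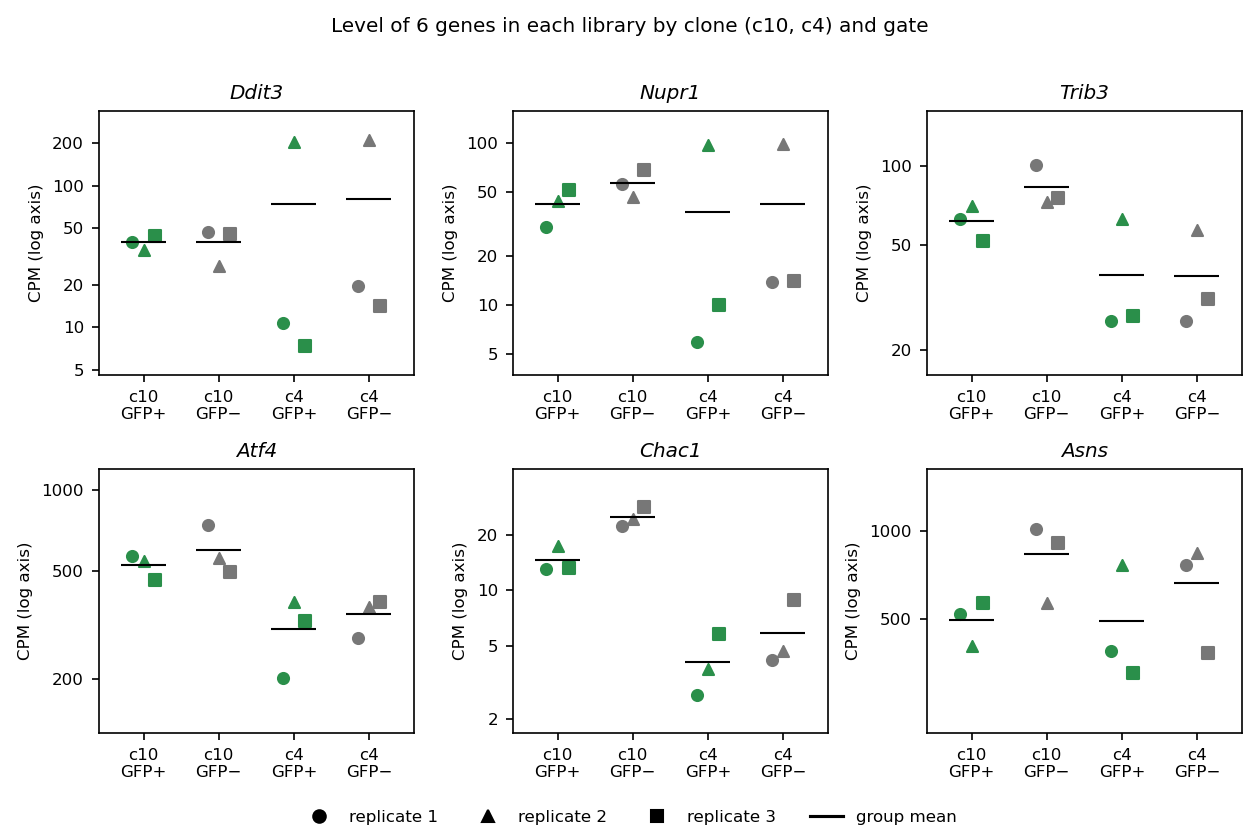
CPM (log axis) of 6 genes in each library, by clone (c10, c4) and gate; symbols mark the replicate and lines the group means (n = 3). In clone 4 the replicate 2 triangles stand apart for Ddit3, Nupr1 and Trib3 in both gates, while for Chac1 all clone 10 libraries lie above all clone 4 libraries.

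The next comparison, GFP-positive against GFP-negative cells, asks what accompanies the labelled loss of Sphk1 in cells that already lack Sphk2. The gates were sorted by Cre-GFP, so Cre-GFP itself and the labelled loss of Sphk1 cannot be told apart here. Without the pair as a term, edgeR called 0 of the 37 genes in clone 10, 0 in clone 4 and 0 for the mean of both, where 0%, 0% and 0.158% of all genes were called. At an unadjusted p under 0.05 there were 2, 0 and 3 of the 37, beside 1130, 209 and 1028 of all 15179 genes, and DESeq2 also called 0 of the list. Within pairs, 2 genes were called in clone 10, 0 in clone 4 and 2 for the mean of both clones, where 4.22%, 0.119% and 3.36% of all genes were called. The 0 in clone 4 stands beside 5 at an unadjusted p under 0.05 (1127 of all 15179 genes) and 0 by DESeq2. For the mean of both clones within pairs the median log2 change of the 37 was -0.14, against 0.0031 over all genes, with 8 positive and 29 negative values. It was -0.21 against -0.0097 in clone 10 and -0.049 against 0.0044 in clone 4. In the clone 4 replicate 2 pair 27 genes were higher in GFP-positive cells and 10 lower, where 50.5% of all genes were higher. By pair, the median log2 difference was -0.233, -0.069 and -0.266 in clone 10 replicates 1 to 3, against 0.0668, -0.0196 and -0.0324 over all genes. In clone 4 replicates 1 to 3 it was -0.149, 0.095 and -0.0239, against 0.0188, 0.00232 and -0.00389 over all genes. The clone 10 replicate 1 pair holds the shallow library. Negative values also prevailed in other lists, with a median of -0.20 for the other cytosolic tRNA synthetases (10 of 11 negative), -0.15 for the mitochondrial ones (15 of 17) and -0.18 for the stem cell markers (10 of 12). The summed levels of the mitochondrial synthetases and stem cell markers were highest in the shallow GFP-negative library of clone 10, at 25970 and 13370 CPM. Their medians without its pair are not given.

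Chac1 and Asns fell in GFP-positive cells for the mean of both clones. Chac1 had 13.1, 17.4 and 13.2 CPM in GFP-positive cells of clone 10 (replicates 1 to 3), against 22.3, 24.3 and 28.3 CPM in GFP-negative cells. In clone 4 it had 2.70, 3.74 and 5.77 CPM in GFP-positive cells, against 4.19, 4.68 and 8.83 CPM in GFP-negative cells. Its GFP-positive value was the lower one in 6 of 6 pairs, and the gates did not overlap in clone 10 but did in clone 4. The log2 change was -0.65 (SE 0.125, edgeR adjusted p = 0.0299) over both clones, -0.78 (SE 0.170, adjusted p = 0.0387) in clone 10 and -0.53 (SE 0.184, adjusted p = 0.552) in clone 4. In clone 10 alone the edgeR call was lost without any 1 pair except clone 10 replicate 1, with log2 changes of -0.62 to -0.95, and with only the clone 10 libraries (-0.80, adjusted p = 0.134). Scaling by total counts also ended the Chac1 call, at -0.67 (edgeR adjusted p = 0.0875) in clone 10, where Ddit4 was called in its place, and at -0.61 (adjusted p = 0.0592) over both clones.

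Asns had 520, 406 and 566 CPM in GFP-positive cells of clone 10, against 1020, 569 and 911 CPM in GFP-negative cells. In clone 4 it had 389, 766 and 326 CPM in GFP-positive cells, against 765, 841 and 383 CPM in GFP-negative cells. Every pair was lower in GFP-positive cells, although the gates overlapped in clone 4, and the log2 change over both clones was -0.58 (SE 0.128, edgeR adjusted p = 0.0482). Neither Chac1 nor Asns was called without clone 4 replicate 2 (log2 change -0.70 and -0.66), clone 4 replicate 1 (-0.63 and -0.45), clone 4 replicate 3 (-0.63 and -0.63) or clone 10 replicate 3 (-0.57 and -0.59), and without clone 10 replicate 2 Chac1 alone of them was (-0.73 and -0.64). Without clone 10 replicate 1, which holds the shallow library, both were called, with Ddit4, which was then also called in clone 10. With the stricter filter Asns was not called (-0.57, edgeR adjusted p = 0.0553).

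Ppp1r15a rose in GFP-positive cells of clone 10. It had 151, 70.1 and 101 CPM there (replicates 1 to 3), against 70.4, 51.8 and 43.9 CPM in GFP-negative cells, and in clone 4 it had 40.2, 47.8 and 39.4 CPM in GFP-positive cells, against 40.1, 52.9 and 39.9 CPM in GFP-negative cells. The log2 change was 0.91 (SE 0.164, edgeR adjusted p = 0.0203) in clone 10 and -0.05 in clone 4. The gates overlapped in both clones, in clone 10 narrowly. It was not called without clone 10 replicate 3 (0.77), without clone 4 replicate 3 (0.91) or with only the clone 10 libraries in the fit (0.89). The difference between the clones' changes was 0.97 (SE 0.23, 95% confidence interval 0.443 to 1.49) within pairs, at an edgeR adjusted p of 0.528, and was not called. The same test of the difference called 0 of the 37 genes, and 0% of all genes, within pairs and without the pair term, and DESeq2 called 0 of the 37. At an unadjusted p under 0.05 there were 5 and 1 of the 37, beside 1167 and 140 of all 15179 genes.

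**Figure D4:**
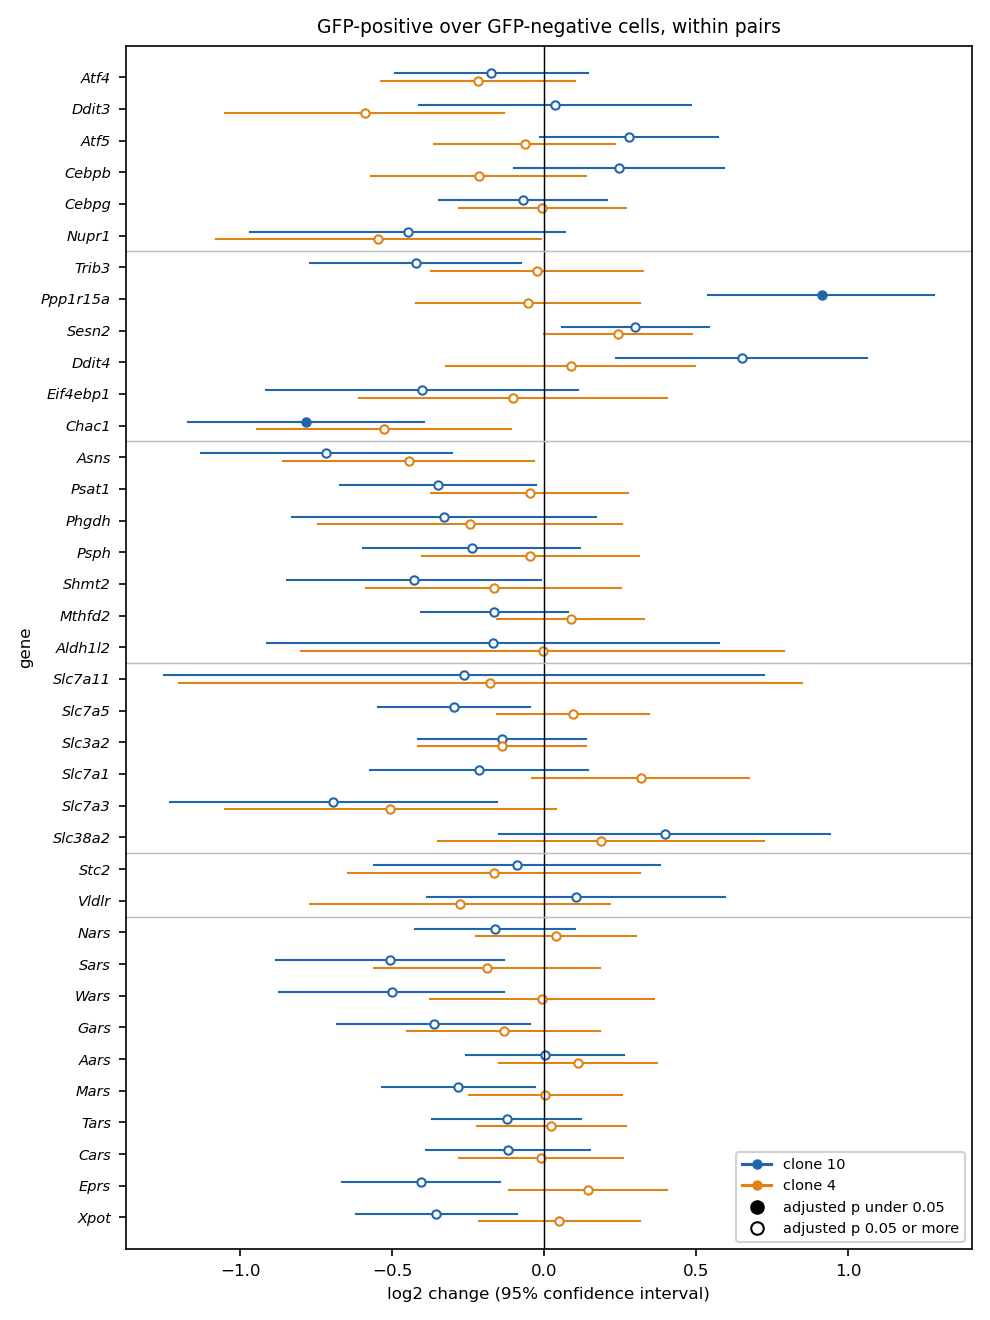
Log2 change in GFP-positive over GFP-negative cells, fitted within pairs, for the 37 tested genes (rows) in clone 10 and clone 4; lines are 95% confidence intervals and filled points have an adjusted p under 0.05. The 2 filled points are Ppp1r15a (0.91) and Chac1 (-0.78) in clone 10.

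The other genes are described by their values within pairs. Atf4 had a log2 change of -0.20 over both clones, Ddit3 of -0.28 and Trib3 of -0.22, none of them called. Ddit3 changed by 0.04 in clone 10 and -0.59 in clone 4, where clone 4 replicate 2 held 204 CPM in GFP-positive and 210 CPM in GFP-negative cells. Without that pair the Ddit3 change was -0.89 in clone 4 and -0.43 over both clones, also not called. Sesn2 was higher in GFP-positive cells of 6 of 6 pairs (log2 change 0.27, edgeR adjusted p = 0.0893) and Nupr1 lower in 6 of 6 (-0.50, adjusted p = 0.124), without passing the test. All 7 enzymes of the serine, asparagine and one-carbon class and 9 of the 10 synthetase and export genes had negative values over both clones, with Asns the only call among these 17. Phgdh, Shmt2, Sars and Wars fell most in the clone 10 replicate 1 pair, which holds the shallow library (-0.975, -0.852, -0.927 and -0.931). In the clone 4 replicate 2 pair they were positive (0.17, 0.147, 0.0286 and 0.215). The signs of these classes without the clone 10 replicate 1 pair are not given. Of the 6 transporters 2 were positive and 4 negative, and Slc7a3 had the most negative value at -0.60 (edgeR adjusted p = 0.0937). With the pair term, DESeq2 called 6 genes for the mean of both clones (Nupr1, Chac1, Asns and Slc7a3 lower, Ppp1r15a and Sesn2 higher) and 6 in clone 10. Over all genes it called 1428 of 15174 and 1569 of 15544, where edgeR called 510 and 641 of 15179.

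Related genes moved as follows in the same comparison. Of the 25 further ATF4 targets, 1 was called for the mean of both clones, Pck2, at a log2 change of -0.55 (SE 0.103, edgeR adjusted p = 0.0284), and in clone 10 Pck2 and Gpt2 fell by 0.80 and 0.71 while Atf3 rose by 1.36. None of the eIF2 kinase, phosphatase and eIF2B genes, the other cytosolic or mitochondrial tRNA synthetases or the unfolded protein response genes was called by edgeR for that mean. At an unadjusted p under 0.05 there were 1 of 12, 6 of 11, 3 of 17 and 2 of 20, beside 3998 of all 15179 genes. Of the 20 p53 targets, 5 rose and 0 fell, among them Btg2 (0.65), Trp53inp1 (0.84), Pmaip1 (0.64) and Plk2 (1.01). The 11 measured markers of a two-cell-like state summed to 3674, 833 and 2349 CPM in GFP-positive cells of clone 10, against 198.7, 95.19 and 71.85 CPM in GFP-negative cells. In clone 4 they summed to 242.5, 34.92 and 26.35 CPM in GFP-positive cells, against 14.94, 4.101 and 6.101 CPM in GFP-negative cells, so that all 6 pairs were higher in GFP-positive cells. The fibroblast markers summed to 113.2, 161.9 and 424.8 CPM in GFP-positive cells of clone 10, against 81.2, 309.9 and 809.9 CPM in GFP-negative cells, and in all 3 clone 4 pairs the GFP-positive sum was the lower one. In 5 of 6 pairs the GFP-positive library is labelled with a later passage, under the same doubt about these numbers. The part of these measures in the changes of Chac1, Asns and Ppp1r15a was not tested. In the authors' deposited table for each clone, 0 of the 37 genes with an adjusted p in clone 10 and 0 of the 35 in clone 4 were below 0.05, where 2.7% and 0.0599% of all genes were.

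The last comparison set clone 10 against clone 4, averaged over both gates. It called 4 of the 37 genes higher and 0 lower, where 3.71% of all genes were called higher and 3.35% lower, and the median log2 difference was 0.30 against 0.023. Chac1 had the clearest difference, at 13.1 to 28.3 CPM over the 6 clone 10 libraries and 2.70 to 8.83 CPM over the 6 clone 4 libraries (log2 difference 1.96, SE 0.26, edgeR adjusted p = 0.0035). Atf4 had 568, 546 and 463 CPM in GFP-positive and 744, 559 and 496 CPM in GFP-negative cells of clone 10, against 203, 386 and 328 CPM in GFP-positive and 284, 370 and 386 CPM in GFP-negative cells of clone 4. Every clone 10 library lay above every clone 4 library, with a log2 difference of 0.79 (SE 0.188, edgeR adjusted p = 0.0283). Cebpb, a partner of ATF4 and CHOP, had 27.5, 15.5 and 27.6 CPM in GFP-positive and 22.3, 13.5 and 23.5 CPM in GFP-negative cells of clone 10, against 7.35 to 13.7 CPM in clone 4, with a slight overlap (log2 difference 0.96, edgeR adjusted p = 0.0278). Cebpb shares 312 exon bases with the oppositely transcribed Tmem189. Ppp1r15a overlapped more, at 43.9 to 151 CPM in clone 10 and 39.4 to 52.9 CPM in clone 4 (log2 difference 0.83, edgeR adjusted p = 0.0307).

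**Figure D5:**
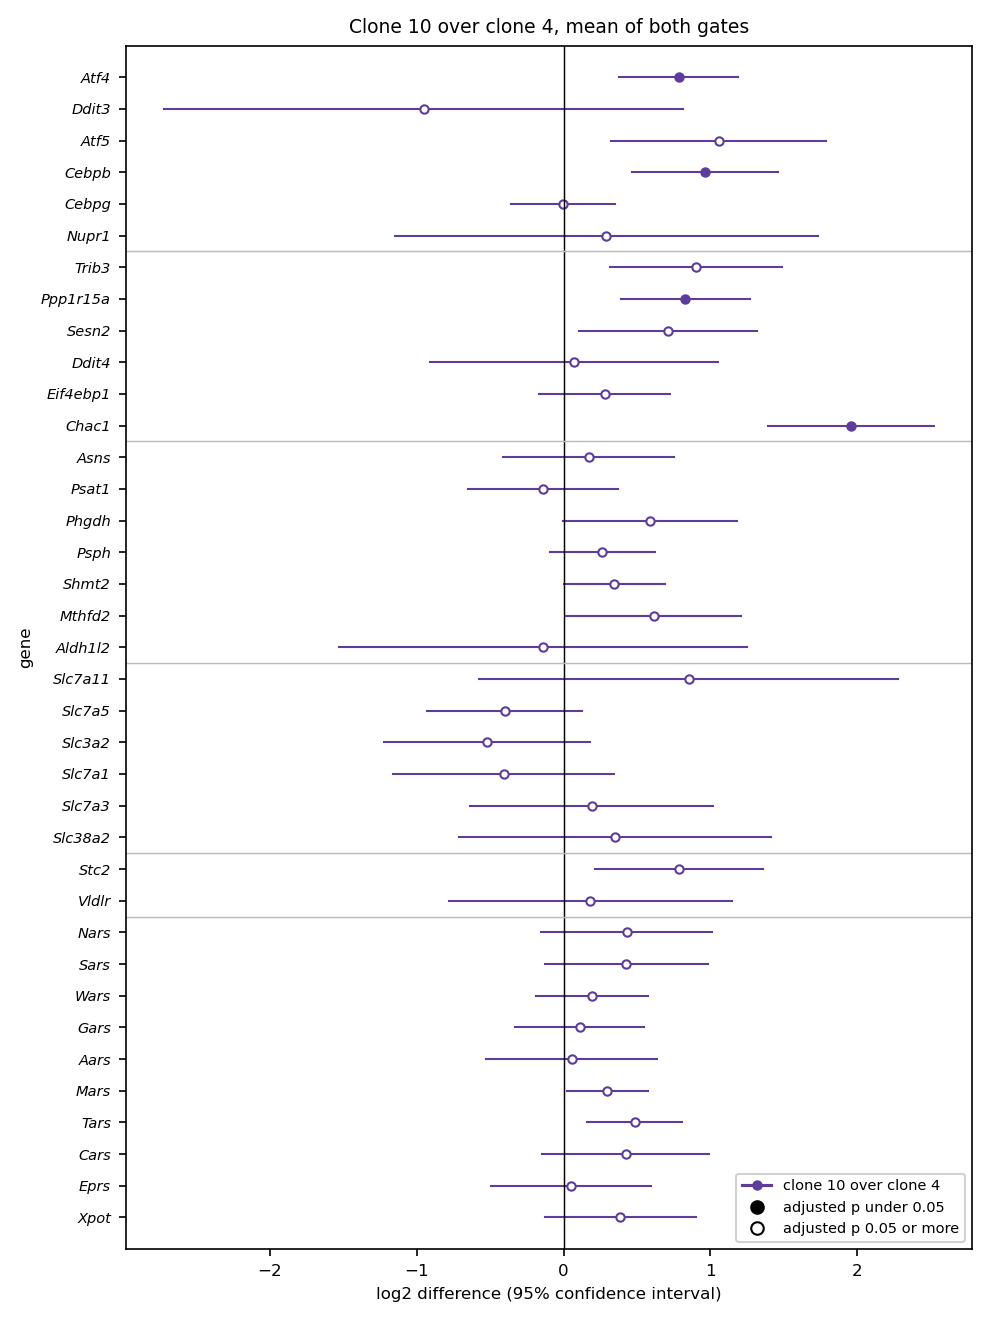
Log2 difference of clone 10 over clone 4, averaged over the gates, for the 37 tested genes (rows); lines are 95% confidence intervals and filled points have an adjusted p under 0.05. Filled points are Chac1 (1.96), Cebpb (0.96), Ppp1r15a (0.83) and Atf4 (0.79), while Ddit3 has the widest span below 0, around -0.95.

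These 4 calls treat the 6 libraries of a clone as independent, although same-numbered libraries varied together. With the counts of each pair summed, 3 pairs against 3, edgeR called 0 of 38 genes, and 0 of 15481 with 2044 at an unadjusted p under 0.05, while the log2 differences stayed at 1.96 for Chac1 (adjusted p = 0.0821), 0.75 for Atf4 (adjusted p = 0.241), 0.97 for Cebpb (adjusted p = 0.232) and 0.95 for Ppp1r15a (adjusted p = 0.202). Chac1 was called whichever library was left out, whereas over the 12 such fits Atf4 lost its call in 6, Cebpb in 5 and Ppp1r15a in 8. Among these, Atf4 was not called without clone 4 GFP-negative replicate 2 (0.81, edgeR adjusted p = 0.0556), nor Ppp1r15a without clone 4 GFP-positive replicate 2 (0.87, adjusted p = 0.056). Scaling by total counts ended the calls of Cebpb (0.87, edgeR adjusted p = 0.0579) and Ppp1r15a (0.72, adjusted p = 0.0509). Chac1 was the single call when GFP-positive replicate 1 or 3 of clone 10 or GFP-negative replicate 1 of clone 4 was omitted, and 2 calls were left when GFP-positive replicate 1 or GFP-negative replicate 3 of clone 4 was. The two-cell-like markers summed to 71.85 to 3674 CPM in clone 10 and 4.101 to 242.5 CPM in clone 4, and their part in the calls was not tested. A clone is a single line, so clone and culture cannot be told apart.

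Counted without a test, all 6 clone 10 libraries lay above all 6 clone 4 libraries for 4 genes (Atf4, Atf5, Chac1 and Tars), where 1.92% of all genes did, and below them for 0, where 3.08% did. Ddit3 was not called, and its direction rested on clone 4 replicate 2: the log2 difference was -0.95 (SE 0.811), 0.18 without GFP-negative replicate 2 and 0.56 without GFP-positive replicate 2. Trib3 had 63.1, 70.4 and 51.9 CPM in GFP-positive and 101, 73.3 and 75.6 CPM in GFP-negative cells of clone 10, against 25.9, 63.2 and 26.9 CPM in GFP-positive and 25.7, 57.3 and 31.3 CPM in GFP-negative cells of clone 4. Its log2 difference of 0.90 missed the threshold (edgeR adjusted p = 0.0649) and passed it without either replicate 2 library of clone 4, at 1.11 and 1.17. All 10 synthetase and export genes and all 6 feedback and signalling genes had positive values, while the 6 transporters had 3 of each sign. Asns had a log2 difference of 0.17. Of the further ATF4 targets 1 was called, Atf3, which was higher in clone 10 by 1.58 (SE 0.333), and of the p53 targets 1, Plk2, higher by 1.54. Of the eIF2 kinase, phosphatase and eIF2B genes 2 were higher, and of the other cytosolic tRNA synthetases 1 was lower.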

How the data were processed

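RNA of 12 libraries was deposited as raw counts of reads for each gene. The submitters' processing notes list mm10, HTSeq 0.6.0, STAR 2.3.0e and both DESeq and DESeq2; which annotation and strand option were used is not given in the sources used here. The authors' 2 deposited comparison tables, 1 per clone, gave gene symbols, mm10 coordinates, log2 fold changes and p-values, and their counts matched the count table (0 columns differing). Per the file headers, these tables also hold a normalized signal (counts over size factors) and a test score, which entered no test here.

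Counts were tested with edgeR 4.0.16 in R 4.3.3 (limma 3.58.1), by the robust quasi-likelihood F test with TMM normalization and Benjamini-Hochberg adjustment over the 15179 genes that passed the default filter (a level worth 10 counts in at least 3 libraries, 15 in total), with calls at an adjusted p under 0.05. The planned fit had a term per group and 8 residual degrees of freedom. A second fit held the pair of same-numbered libraries as a block, with 4, since the 6 same-number correlations were all over 0.1. Biological coefficients of variation were 0.389 and 0.175. CPM used TMM effective library sizes, and intervals cover 95%. Alternatives were DESeq2 1.42.0, other scalings and filters, passage as a covariate, 1 clone alone and libraries left out. The procedure was tested on simulated data. Exon lengths came from GENCODE on GRCm38.

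Genes with values in every library were Ddit3, Atf4, Trib3, Chac1, Asns and up to 12 called per comparison, by smallest p, and in other lists at most 4 genes by smallest p within pairs for the mean of both clones. The genes and lists were chosen with earlier results of these data known.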

Additional observations from a re-analysis of the deposited data

How the results depend on the processing

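Without the pair term edgeR called 0 genes in clone 10 and 0 for the mean of both clones, and the replicate block gave 2 and 2. With the block, DESeq2 called 6 in clone 10 (1569 of all 15544 genes) and 6 for the mean (1428 of 15174). For the mean, the stricter filter called 1 (496 of 13332) and scaling by total counts 1 (333 of 15179). Only the clone's 6 libraries gave 0 in clone 10 (266 of 14606). Leaving out 1 pair gave 0 to 3 calls in clone 10 and 0 to 3 for the mean, where 132 to 657 and 125 to 980 of all genes were called. For clone 10 against clone 4, with 4 calls (1071 of all 15179 genes), DESeq2 called 8 (2167 of 16620) and scaling by total counts 2 (1190 of 15179). Summed pairs gave 0 (0 of 15481) and leaving out 1 library 1 to 4 (488 to 1255 of all genes). No paired fit exists there, since pairs lie within clones. Across the pairs of clone 4, with 29 calls (44.7% of all genes), leaving out 1 pair gave 11 (17.4%) to 32 (65.9%). Across those of clone 10, with 11 calls (27.7%), it gave 0 (2.22%) to 11 (20.4%). The 6 clone 10 libraries alone gave 1 (1.24%). The Ddit3 change in clone 10 within pairs, 0.04, ran from -0.14 (without clone 10 replicate 2) to 0.16 with 1 pair left out, and its difference between clones, -0.95, ran from -1.22 to 0.56, turning positive without either clone 4 replicate 2 library. The causes were not tested. Scaling by total counts moved the median of all genes by over 0.1 for the change in clone 10 (-0.0097 with TMM and 0.11 by totals within pairs, -0.035 and 0.071 without), for its difference from the change in clone 4 (-0.029 and 0.10 within pairs, -0.053 and 0.075 without), for replicate 2 over replicate 3 (-0.05 and -0.20 in clone 10, 0.016 and 0.13 in clone 4) and for replicate 3 over replicate 1 of clone 10 (0.016 and 0.19). Total-count scaling and summed pairs were added after seeing the data. Low counts limit Slc7a11 and Fgf21.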
